A study of Mus musculus with 11 samples.

Results

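C1 eye drops were compared with vehicle eye drops in the corneas of mice under desiccating stress, over all 248 genes of an inflammation panel. The comparison rests on 7 of the 11 samples of the series, 4 that received C1 and 3 that received vehicle, and it takes every gene of the panel, so that the choice of genes used no measured difference. All samples came from female C57BL/6 mice kept for 5 days in a drafty environment of low humidity, with scopolamine in the drinking water to suppress tear secretion. Eye drops were given 2 times a day during the stress and held either the vehicle, phosphate-buffered saline, or C1 at 10 μM. C1 is a small molecule that the study made as a selective partial agonist of TrkC, and pan, used here only for comparison at the same 10 μM, was made to activate TrkA, TrkB and TrkC. The labels name the tissue as cornea and the cells as corneal epithelia. No unstressed cornea was measured, so each value compares 2 stressed groups.

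Trk receptors are receptor tyrosine kinases that bind neurotrophins, the growth factors that maintain neurons and, in the cornea, nerves and epithelium. TrkC prefers neurotrophin-3, and signals through Ras and ERK, phosphoinositide 3-kinase and phospholipase C. Desiccating stress is a model of dry eye, in which the ocular surface releases cytokines such as interleukin 1 and tumour necrosis factor, activates NF-kB and p38 and JNK kinases, and recruits leukocytes. The panel measures these mediators, their receptors and the kinases and transcription factors downstream of them. It holds no Trk receptor, no neurotrophin and no keratin, so neither the target of C1 nor the labelled epithelium could be checked.

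The deposited values are log2 normalized counts: how often the probe of a gene was counted, scaled by the authors to housekeeping genes. The probe counts behind the 248 genes summed to between 91955 and 133098 in the vehicle samples and between 165828 and 525997 in the C1 samples. Even the smallest of the C1 totals exceeded every vehicle total, by a factor of 1.25. The groups also differed in an age label: one label gave 3 months for every sample, and a second gave 2 to 3 months for the vehicle samples and 22 to 24 months for the 4 C1 samples. The study's methods give an age under the 3 months of the first label and far under 22 to 24 months, and the conflict could not be settled. The treatment, the total count and the second age label therefore cannot be told apart in the comparison with vehicle. C1 replicate 4, the sample with the highest C1 total, correlated least with the others (r between 0.960 and 0.973 over the well-detected genes). Nothing in the labels says whether a sample was 1 mouse or a pool. Of marker genes for other cells, those of macrophages summed to between 238 and 375 normalized counts in vehicle and 276 to 391 in C1, with 5 of 9 well detected. Stromal markers summed to between 140 and 166 in vehicle and 144 to 221 in C1, with 2 of 4 well detected. None of the 4 T cell markers and none of the 4 neutrophil markers was well detected. In such bulk samples, fewer cells of a type and less RNA per cell cannot be told apart.

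Of the 248 genes, 133 were well detected, meaning that their log2 values averaged 5 or more over the 7 samples, and 115 lay under this level. No gene reached the level through the C1 samples alone, and 2 genes, C3ar1 and C4a, had a C1 mean under it. The members nearest the limit were C4a at 5.02 above it and Ptger1 at 4.98 under it. No gene of the 248 passed an adjusted p of 0.05 in limma (0% called). At an unadjusted p of 0.05, 13 genes were higher in C1 and 13 lower (5.24% of the 248 each). Among the 133 well-detected genes, 11 were higher (8.27%) and 3 were lower (2.26%), while among the 115 genes under the level 2 were higher (1.74%) and 10 were lower (8.70%). Without vehicle replicate 2 only 5 well-detected genes were higher, and without vehicle replicate 3 or C1 replicate 4 it was 7. The lower genes numbered 1 without vehicle replicate 3, C1 replicate 2 or C1 replicate 3, and 6 without C1 replicate 1. In 13 well-detected genes all 4 C1 samples lay above all 3 vehicle samples (9.77%), and in 4 they all lay below (3.01%). Over all 248 genes these counts were 15 (6.05%) and 10 (4.03%), since 2 genes under the level lay wholly above vehicle (1.74%) and 6 wholly below (5.22%). With each sample centred on the median of its well-detected genes, the well-detected counts were 13 and 10.

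**Figure D1:**
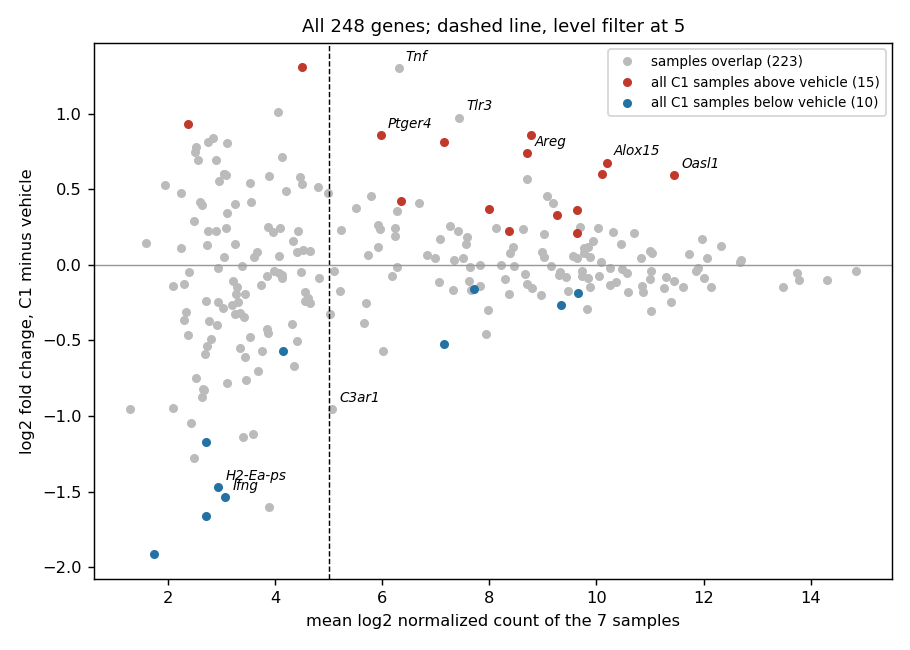
Each point is 1 of the 248 genes, with its mean log2 normalized count over the 7 samples on the x axis and its log2 fold change, C1 minus vehicle, on the y axis. Right of the dashed line at 5 the points narrow around 0, and the named genes above 0 are mostly red, with all C1 samples above all vehicle samples. The C1-low points at log2 fold changes under -1 lie left of the line.

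Most of the well-detected panel lay close to vehicle. The median log2 fold change was 0.02, with quartiles of -0.11 and 0.21, and 99 of the 133 genes were within 0.25 of 0. For 112 genes the 95% interval of the log2 fold change lay within 1 either way, which bounds the difference to less than a doubling or halving, and for 53 genes within 0.5 either way. A log2 fold change of at least 0.5 was measured for 10 genes, and one of -0.5 or lower for 3. Only Tnf reached a log2 fold change of 1.2 in size, the limit set beside the adjusted p, while a linear difference of 1.2-fold was reached by 30 genes, 21 higher and 9 lower.

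The largest differences in lipid mediator genes were in Ptger4 and Alox15. Ptger4 (gene ID 19219) encodes the prostaglandin E2 receptor EP4, which raises cyclic AMP. It measured 48.0, 39.2 and 47.7 normalized counts in the 3 vehicle samples and 68.8, 84.8, 76.9 and 95.9 in the 4 C1 samples. The groups did not overlap, and the lowest C1 sample stood well above the highest vehicle sample. The log2 fold change was 0.85 (SE 0.16, 95% interval 0.47 to 1.24), a 1.81-fold higher level, with an adjusted p of 0.211 in limma over the 248 genes and 0.0400 when only the 133 well-detected genes were fitted, where it was the 1 gene called (0.752%). The exact two-sided permutation p was 0.0571, the smallest that 3 samples against 4 allow. The other well-detected genes of prostanoid synthesis stayed near vehicle in this fit. Pla2g4a, the phospholipase that releases arachidonic acid, had a log2 fold change of -0.09 (SE 0.13), and Ptgs1, cyclooxygenase 1, one of 0.08 (SE 0.15). With the total count as a covariate both were below 0, and the median of the 3 genes was -0.24. The remaining 8 of the 11 prostanoid genes, Ptger1, Ptger2 and Ptger3 among them, were under the level.

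Alox15 (gene ID 11687), a lipoxygenase that oxygenates arachidonic acid, measured 925, 945 and 822 in vehicle and 1399, 1560, 1184 and 1622 in C1. All C1 samples were above all vehicle samples, with a log2 fold change of 0.68 (SE 0.15, limma adjusted p 0.211). Alox12, a related lipoxygenase, had 0.21 (SE 0.12) with overlapping samples. The leukotriene B4 receptor genes Ltb4r1 and Ltb4r2 had 0.24 (SE 0.15) and -0.17 (SE 0.14).

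Areg (gene ID 11839), which encodes the epidermal growth factor receptor ligand amphiregulin, measured 376, 277 and 290 in vehicle and 542, 539, 430 and 577 in C1. Again no C1 sample fell into the vehicle range, and the log2 fold change was 0.74 (SE 0.17, limma adjusted p 0.211). Smad7, an inhibitor of TGF-beta signalling, measured 236, 237 and 191 in vehicle and 301, 258, 299 and 284 in C1, with a log2 fold change of 0.37 (SE 0.14, limma adjusted p 0.436). The 3 TGF-beta genes and the receptor gene Tgfbr1 were all at log2 fold changes below 0, from -0.04 for Tgfb2 to -0.29 for Tgfb1, and none passed an unadjusted p of 0.05. With the total count of each sample as a covariate, Tgfbr1 was at 0.12. Mmp3, a matrix metalloproteinase, varied between 388 and 902 among the C1 samples and gave 0.45 (SE 0.30). Pdgfa, a growth factor gene, had 0.11 (SE 0.17).

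The 250 bases before the start sites of Ptger4 and Areg are shown because these are a pair of leading genes whose C1 samples were separate from vehicle. They come from the RefSeq annotation of GRCm38.p6. Capitals mark a match to the cyclic AMP response element TGACGTCA, at position -61 from the start of Areg.
Ptger4, chr15:5244188-5244437, minus strand: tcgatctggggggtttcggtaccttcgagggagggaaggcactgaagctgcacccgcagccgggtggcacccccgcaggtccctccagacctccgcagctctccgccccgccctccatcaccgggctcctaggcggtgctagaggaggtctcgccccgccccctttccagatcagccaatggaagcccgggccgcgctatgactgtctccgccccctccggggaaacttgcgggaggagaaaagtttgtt
Areg, chr5:91139349-91139598, plus strand: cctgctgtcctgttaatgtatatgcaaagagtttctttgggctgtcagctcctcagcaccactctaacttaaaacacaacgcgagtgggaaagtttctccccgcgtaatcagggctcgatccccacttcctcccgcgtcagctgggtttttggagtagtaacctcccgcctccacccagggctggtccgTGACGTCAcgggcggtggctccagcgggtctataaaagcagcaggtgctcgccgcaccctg
The element, read on both strands, was in the 300-base window around the start of 2.03% of the 27025 genes with a promoter in the RefSeq table. Among the well-detected genes whose C1 samples were all above vehicle, 8 had a promoter there, and only that of Areg matched. The AP-1 site TGANTCA (8.97% of all promoters) was in that of Tnfaip3, at position -136.

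Among interferons and interferon-stimulated genes, 2 of the 9 well-detected members had all C1 samples above vehicle, beside 9.77% of all well-detected genes. Oasl1 (gene ID 231655), which encodes a 2'-5' oligoadenylate synthetase-like protein induced by interferon, measured 2573, 2130 and 1970 in vehicle and 3055, 3691, 3394 and 3221 in C1. The means were 2224 ± 312 (SD, n = 3) and 3340 ± 271 (SD, n = 4), and the log2 fold change was 0.59 (SE 0.15, limma adjusted p 0.211). Ifi27l2a, another interferon-induced gene, measured 80.1, 108 and 125 in vehicle and 149, 186, 296 and 130 in C1, with a log2 fold change of 0.81 (SE 0.31, limma adjusted p 0.436). The lowest C1 sample there was only just above the highest vehicle sample.

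The other 7 interferon-stimulated genes overlapped between groups, with log2 fold changes from -0.20 for Mx1 to 0.17 for Ifit2. Much of their spread came from 1 sample. C1 replicate 4 was the lowest of the 7 samples in 5 of the 9 genes, against 8 of the 133 well-detected genes in all. Oas2, which makes the activator of RNase L, measured 136, 154 and 192 in vehicle and 176, 279, 304 and 47.1 in C1. Ifi44 measured 96.1, 159 and 178 in vehicle and 154, 203, 235 and 38.02 in C1. Without C1 replicate 4, the log2 fold change went from 0.03 to 0.63 for Oas2 (limma adjusted p 0.506), and from -0.11 to 0.48 for Ifi44 (adjusted p 0.656). Oasl1 itself hardly depended on that sample, at 0.61 without it. The median of the 9 genes was 0.03, with 5 above 0, and 0.35 without C1 replicate 4. With the total count as a covariate 8 were above 0 and the median was 0.41. The 4 IRF genes, which encode factors of interferon signalling, lay between -0.14 and 0.08, with Irf7 at 0.08 (SE 0.21) and Irf1 at 0.03 (SE 0.13). Ifng was under the level.

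Il15 (gene ID 16168), a cytokine that sustains natural killer and memory T cells, measured 66.1, 64.5 and 77.3 in vehicle and 85.3, 91.9, 94.9 and 98.9 in C1. The C1 values lay in a narrow band above all vehicle values, and the log2 fold change was 0.42 (SE 0.13, limma adjusted p 0.370). The interleukin 6 receptor gene Il6ra and the macrophage growth factor gene Csf1 had 0.12 (SE 0.14) and -0.17 (SE 0.18).

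In the interleukin 1 family all 5 well-detected members of 7 had log2 fold changes above 0, beside 68 of the 133 well-detected genes. The median was 0.08, from 0.05 to 0.22 when 1 sample was left out, and 0.32 with the total count as a covariate. Il1a, an alarmin cytokine of epithelium, measured 414, 318 and 285 in vehicle and 557, 539, 377 and 532 in C1. C1 replicate 3 lay below the highest vehicle sample, and the log2 fold change was 0.57 (SE 0.21, limma adjusted p 0.436). Il1r1, the signalling receptor, measured 721, 710 and 653 in vehicle and 1161, 811, 786 and 853 in C1, without overlap, at 0.36 (SE 0.17). The receptor antagonist Il1rn, the co-receptor Il1rap and the cytokine Il18 lay between 0.06 and 0.08. Il1b was under the level.

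Tlr3, the toll-like receptor for double-stranded RNA, had a log2 fold change of 0.97 (SE 0.36, limma adjusted p 0.436). It measured 102, 127 and 125 in vehicle and 122, 220, 299 and 351 in C1. C1 replicate 1 fell within the vehicle range and the other 3 C1 samples did not, and the C1 values followed the order of the total counts. With log2 total count as a covariate in a fit of all 3 groups, the value was 0.26. Tlr5, the flagellin receptor, measured 575, 493 and 438 in vehicle and 572, 608, 718 and 775 in C1, at 0.41 (SE 0.17), and -0.02 with the covariate. Tlr2, which recognises bacterial lipoproteins, had 0.35 (SE 0.17), and -0.09 with the covariate. The 5 other well-detected members, which include Tlr4 and the adaptor Myd88, lay between -0.11 and 0.12. The NOD-like receptor gene Nod1 and the kinase gene Ripk2 were at -0.15 (SE 0.15) and -0.16 (SE 0.13).

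**Figure D2:**
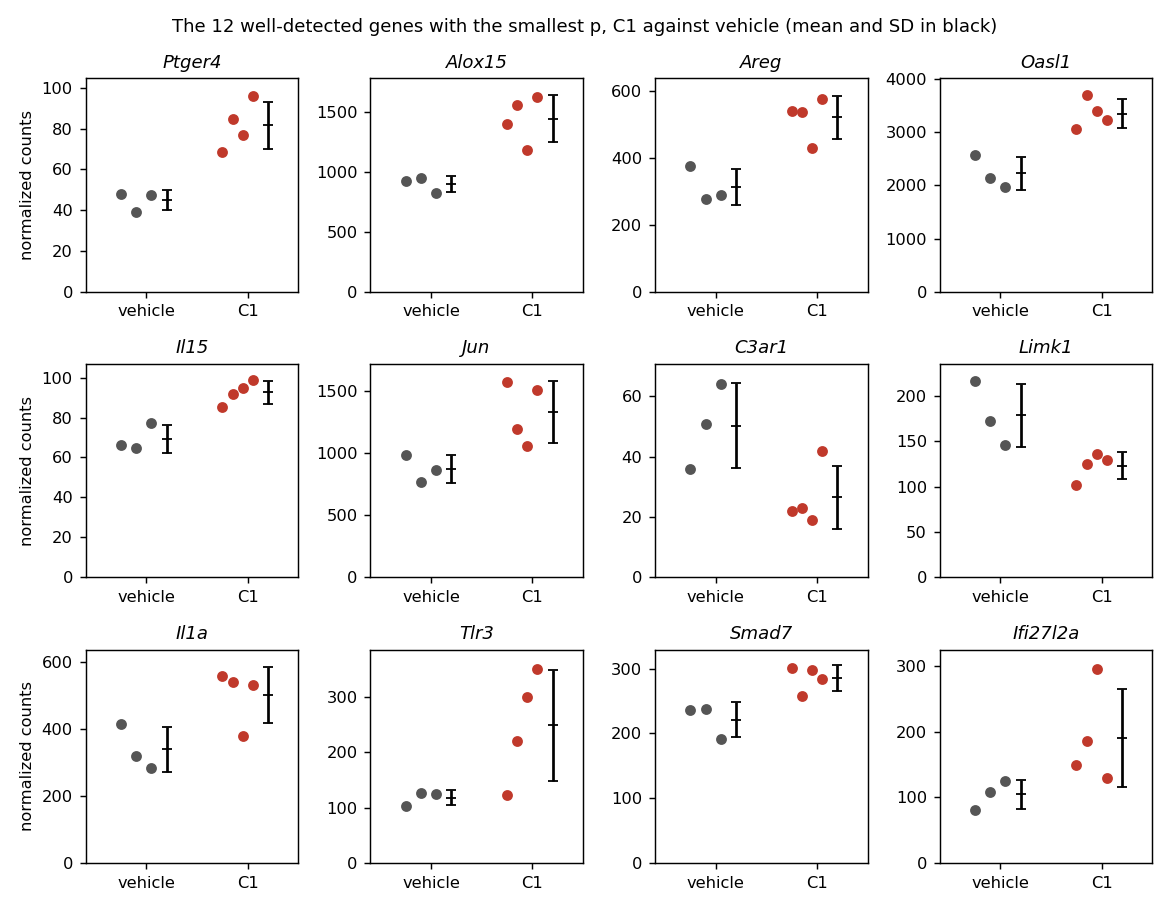
Each panel shows normalized counts, on an axis from 0, of 1 gene in the 3 vehicle samples (grey) and the 4 C1 samples (red), with the mean and SD beside them. The genes are the 12 well-detected genes with the smallest p, from Ptger4 to Ifi27l2a. The red points are clear of the grey ones in Ptger4, Alox15, Areg, Oasl1, Il15, Jun, Limk1, Smad7 and Ifi27l2a, while in C3ar1, Il1a and Tlr3 at least 1 C1 point lies within the vehicle range.

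In the TNF and NF-kB list, 8 of the 11 well-detected genes had log2 fold changes below 0, beside 65 of the 133 well-detected genes. The 3 others were Tnf, Tnfaip3 and Tradd. The list median was -0.10, and from -0.13 to -0.008 when 1 sample was left out. With the total count as a covariate 4 were below 0 and the median was 0.05. Tnf, the cytokine itself, measured 54.1, 62.2 and 31.2 in vehicle and 59.2, 89.7, 114 and 302 in C1, with the largest log2 fold change of the well-detected panel at 1.30 and a wide error (SE 0.56, limma adjusted p 0.452). C1 replicate 1 fell within the vehicle range, and the value was 0.84 without C1 replicate 4 and 0.13 with the total count as a covariate. Tnfaip3, which encodes the NF-kB inhibitor A20, measured 344, 320 and 273 in vehicle and 585, 395, 385 and 1131 in C1. All 4 C1 samples were higher, with a log2 fold change of 0.86 (SE 0.39, limma adjusted p 0.452), and 0.52 without C1 replicate 4. The subunits of NF-kB itself lay close to vehicle, with Nfkb1 at -0.02 (SE 0.12), Relb at -0.01 (SE 0.14) and Rela at -0.18 (SE 0.19). The signalling adaptors and kinases Traf2, Tradd, Birc2 and Ripk1 lay between -0.19 and 0.00.

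Among immediate-early and stress transcription factors, 3 of the 14 well-detected genes had all C1 samples above vehicle and 1 had all below, beside 9.77% and 3.01% of all well-detected genes. Jun, the AP-1 subunit that JNK phosphorylates, measured 987, 768 and 862 in vehicle and 1570, 1194, 1055 and 1511 in C1, a log2 fold change of 0.60 (SE 0.19, limma adjusted p 0.370). Its partner Fos measured 2805, 1275 and 2143 in vehicle and 1523, 1516, 1565 and 5366 in C1. One C1 sample was thus far above the rest, and the log2 fold change was 0.09 (SE 0.53). Cebpb, a factor of cytokine-driven transcription, had 0.33 (SE 0.15) and Tcf4, a helix-loop-helix factor, 0.22 (SE 0.13), both without overlap. Max, the obligate partner of Myc, measured 685, 691 and 781 in vehicle and 675, 617, 557 and 553 in C1, at -0.26 (SE 0.13), and 0.01 with the total count as a covariate. Hif1a, the hypoxia factor, was at 0.04 (SE 0.13). The Nrf2 list of oxidative stress factors had 5 well-detected genes between -0.25 for Nfe2l2, which encodes Nrf2, and 0.25 for Mafk, and all overlapped.

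The 10 genes from Ras to ERK, a route that Trk receptors use, lay between -0.30 for Mknk1 and 0.14 for Rps6ka5. Their median was 0.02, and -0.10 with the total count as a covariate. None was at an unadjusted p under 0.05, beside 8.27% of the well-detected genes higher and 2.26% lower. Leaving out 1 sample gave -0.46 to -0.19 for Mknk1. Hras1 measured 238, 219 and 215 in vehicle and 187, 194, 212 and 210 in C1, the one member without overlap, at -0.16 (SE 0.12). Map2k1, the ERK kinase gene, was at -0.02 (SE 0.11). Of the p38 and JNK list, 13 of 16 genes were well detected and lay between -0.30 for Map3k1 and 0.23 for Hspb2. Mapk8, which encodes JNK1, measured 765, 708 and 737 in vehicle and 898, 857, 767 and 896 in C1, without overlap, at 0.21 (SE 0.12). Mef2d, a factor that p38 can activate, was lower in every C1 sample, at -0.19 (SE 0.12). The G protein and protein kinase C genes reached from -0.46 for Prkcb (SE 0.20, and -0.29 without vehicle replicate 1) to 0.13 for Gnas (SE 0.22). The HMG protein genes Hmgb1, Hmgb2 and Hmgn1 lay between -0.04 and 0.19.

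Genes of actin regulation held 2 of the 3 well-detected genes that were lower in C1 at an unadjusted p of 0.05 (2.26% of the 133), a total that ranged from 1 to 6 when 1 sample was left out. Limk1, the kinase that inactivates cofilin, measured 216, 173 and 146 in vehicle and 102, 126, 136 and 129 in C1. Each C1 sample lay below every vehicle sample, with a log2 fold change of -0.53 (SE 0.18, limma adjusted p 0.427). Ppp1r12b, a subunit of myosin phosphatase, measured 72.1, 94.5 and 78.9 in vehicle and 78.4, 44.9, 48.0 and 53.6 in C1. C1 replicate 1 stayed in the vehicle range, and the value was -0.57 (SE 0.23, limma adjusted p 0.443). Cofilin itself, Cfl1, had 0.21 (SE 0.14). The GTPase genes Rhoa, Rac1 and Cdc42 were at -0.15 (SE 0.12), -0.05 (SE 0.12) and -0.04 (SE 0.15). Over the 8 well-detected genes of this list, 6 were below 0 and the median was -0.07.

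C3ar1, the receptor for the complement fragment C3a, was the third of these genes. It measured 36.0, 50.7 and 64.1 in vehicle and 22.0, 23.1, 19.1 and 41.9 in C1. The first 3 C1 samples lay below all vehicle samples and replicate 4 did not, and the log2 fold change was -0.95 (SE 0.32, limma adjusted p 0.418). C3ar1 is also one of the macrophage markers. The macrophage complement genes C1qa and C1qb were on the other side of 0, at 0.24 (SE 0.26) and 0.45 (SE 0.21), as were the mannose receptor Mrc1 at 0.38 (SE 0.26, and 0.23 without vehicle replicate 1) and the myeloid adaptor Tyrobp at 0.27 (SE 0.32). C3, the central complement protein, measured 64.1, 53.0 and 59.2 in vehicle and 60.5, 42.8, 33.5 and 47.1 in C1, at -0.38 (SE 0.21). All 4 well-detected genes of the macrophage and MHC class II list were above 0 with a median of 0.24, and all 4 overlapped between the groups. H2-Eb1, an MHC class II gene, had 0.22 (SE 0.22), and Arg1, arginase, 0.17 (SE 0.13, and 0.10 to 0.28 when 1 sample was left out).

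**Figure D3:**
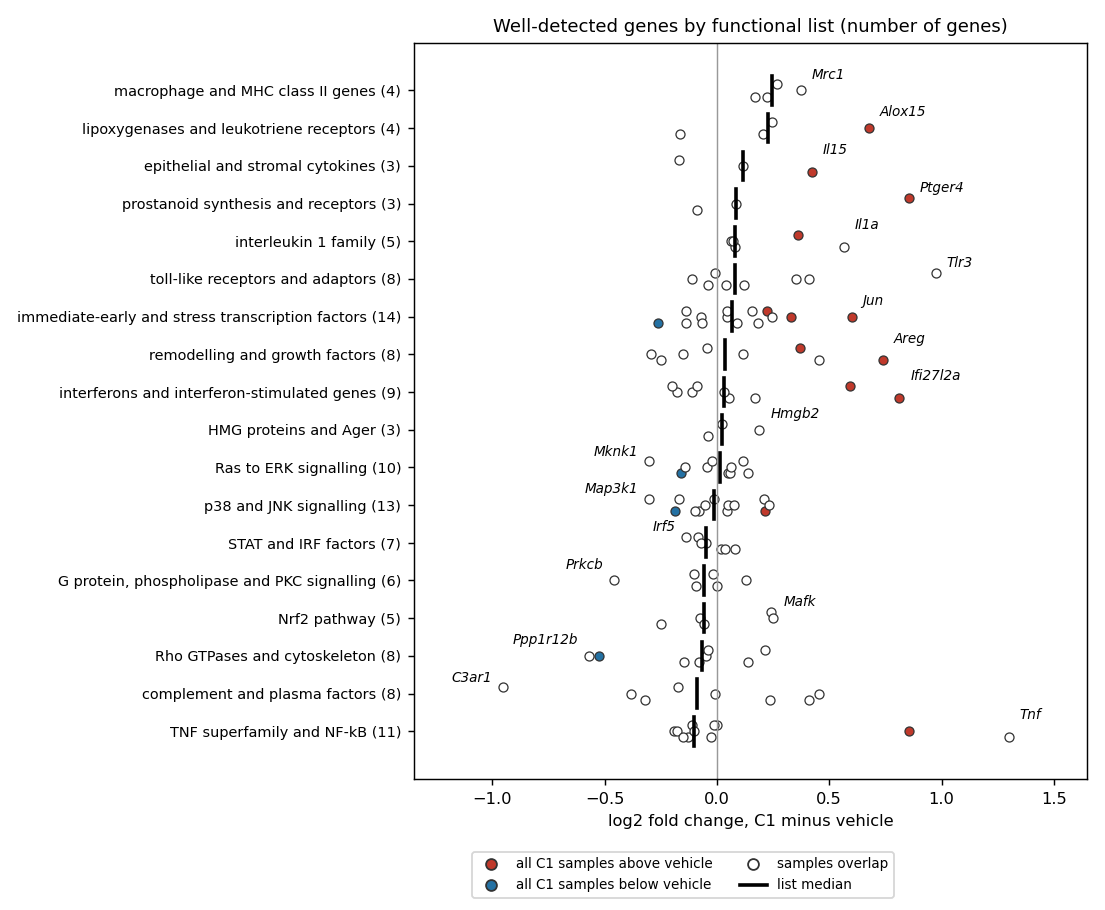
Each point is the log2 fold change, C1 minus vehicle, of 1 well-detected gene, in rows by functional list, with the list median as a black bar and the number of genes in brackets. Only lists with at least 3 well-detected genes are drawn. List medians lie between -0.10 and 0.24, and single genes such as Ptger4, Areg, Oasl1 and Jun stand apart from the rest of their rows.

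None of the 9 CXC chemokine and receptor genes was well detected, 1 of the 18 CC genes was (Ccl21a, 0.26, SE 0.27), and 1 of the 17 lymphocyte cytokine and receptor genes was (Il10rb, 0.25, SE 0.14). The 5 genes under the level with the smallest p were Ifng, H2-Ea-ps, Cxcl9, Ccr4 and Tlr7, all lower in C1 and none with a limma adjusted p under 0.211. Ifng, the type II interferon, rested on 6, 8 and 10 probe counts in vehicle and 3, 8, 7 and 22 in C1. Its normalized counts were 12.01, 18.4 and 16.5 against 4.13, 5.61, 3.61 and 9.50, which gave a log2 fold change of -1.54 (SE 0.36). The probe counts overlapped between the groups, while the normalized counts were lower in C1. There 1 count was worth 0.432 to 1.38 normalized counts, against 1.64 to 2.30 in vehicle. Probe counts of H2-Ea-ps overlapped likewise, with 7, 8 and 6 in vehicle and 2, 9, 11 and 14 in C1. Those of Cxcl9 were 5, 6 and 5 against 5, 6, 6 and 12. Why the normalized counts were lower was not tested. Background was taken as the mean of the 50 genes with the lowest levels in these same samples. It was 5.53 to 10.2 normalized counts in the vehicle samples and 5.01 to 9.33 in the C1 samples. With this background subtracted and values floored, Ifng had a log2 fold change of -2.96 (limma adjusted p 9.1e-05), with all C1 samples at the floor. The floor removed the spread of the C1 samples and set the size of that change. The SE of Ifng was 0.14 there, against 0.36 before, so this p does not measure the difference. The others were at -2.37 for H2-Ea-ps (limma adjusted p 0.179), -2.99 for Tlr7 (0.282), -2.14 for Ccr4 (0.431) and -1.12 for Cxcl9 (0.5004).

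C1 and pan were 1 pair of compounds at one dose and one time, and their difference was tested directly in limma. Pan replicates 1 to 3 had totals of 64156 to 101351 and the 2 to 3 month label. The C1 samples had totals of 165828 to 525997 and the 22 to 24 month label, which only pan replicate 4 shared. Compound is therefore largely confounded with total count and the second age label here too. Of the 248 genes, 1 passed an adjusted p of 0.05 (0.403%) and 38 an unadjusted p of 0.05 (15.3%). The one gene, Pik3c2g, a phosphoinositide 3-kinase gene, was under the level, and its mean was 9.40 normalized counts in C1 and 3.25 in pan. In pan replicates 1 to 3, 1 count was worth 2.44 to 3.25 normalized counts and 3 counts 7.32 to 9.74. This pan mean thus stood for very few counts. Of 14 genes, the 12 in the panels of leading genes plus Tnfaip3 and Tnf, none differed between the compounds at an adjusted p of 0.05 over the 248 genes. The lowest adjusted p was that of Il15 at 0.150, with 48.7, 61.0, 49.3 and 55.4 in pan and a C1 minus pan difference of 0.80 (95% interval 0.41 to 1.18), and it was 0.0313 when only well-detected genes were fitted. All C1 samples were above all pan samples there, as they were in Oasl1, which measured 1558, 2221, 2391 and 2061 in pan (0.71, 95% interval 0.27 to 1.16, adjusted p 0.256). Smad7 was also higher in every C1 sample, at 0.40 (95% interval 0.00 to 0.80).

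Ptger4 measured 74.7, 90.3, 55.1 and 84.6 in pan, within the C1 range for 3 of 4 samples. The C1 minus pan difference was 0.11 with a 95% interval of -0.38 to 0.61, which leaves room for a difference in either direction. Tnfaip3 measured 1405, 1176, 1145 and 854 in pan, where only the fourth lay in the C1 range, and the difference was -1.002 (95% interval -1.81 to -0.19, adjusted p 0.260). Il1a measured 1347, 539, 1185 and 481 in pan, at -0.70 (95% interval -1.53 to 0.14). Areg was 0.55 higher in C1 (95% interval 0.09 to 1.01), and Alox15 0.44 (95% interval -0.17 to 1.05), with pan samples between 779 and 1503. Against vehicle, pan had 5 genes at a limma adjusted p under 0.05 (2.02%), Tnfaip3 among them. Both comparisons with vehicle used the same 3 vehicle samples, so their values are set side by side only.

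**Figure D4:**
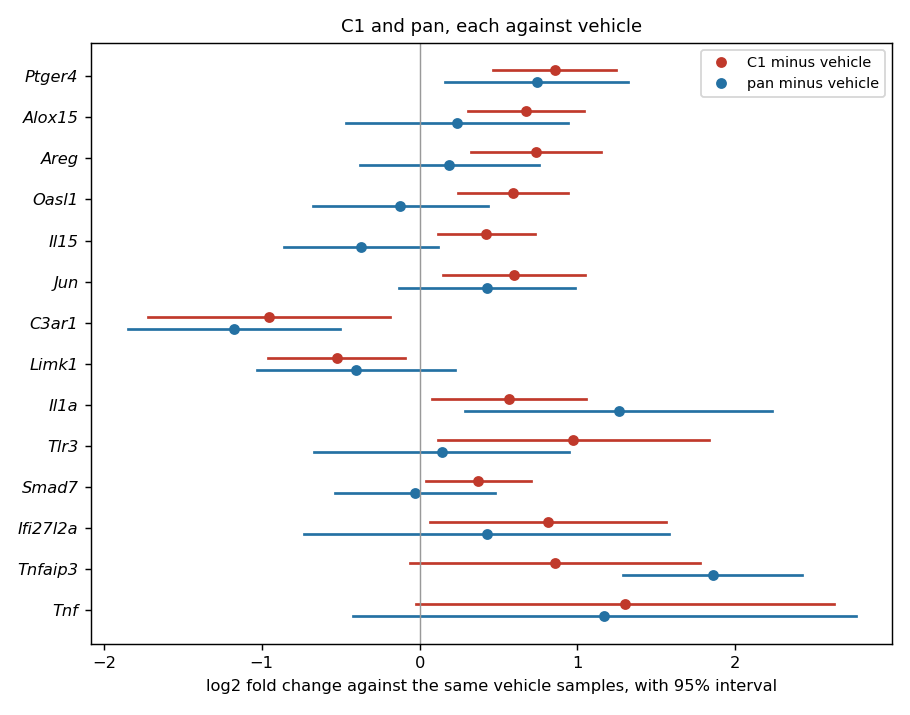
Points are the log2 fold changes of C1 (red) and of pan (blue) against the same 3 vehicle samples, with limma 95% intervals, for 14 genes. Ptger4, Jun, C3ar1 and Limk1 have similar points for both compounds, at 0.85 and 0.74 for Ptger4, and Oasl1 and Il15 have points on opposite sides of 0, at 0.59 and -0.12 for Oasl1 and 0.42 and -0.37 for Il15.

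The leading genes were also set against the total count of each sample. Pan replicate 4 has the highest total of all samples, 646446, and the 22 to 24 month label that the C1 samples carry, while pan replicates 1 to 3 have totals of 64156 to 101351 and the label of the vehicle samples. Oasl1 in pan replicate 4 measured 2061, within the vehicle range. Tlr3 measured 240 there, against 97.6 to 119 in the other pan samples, and Tnf 284, against 42.2 to 193. With the total count as a covariate in a fit of all 3 groups, the log2 fold change of C1 against vehicle was 0.67 for Ptger4, 0.44 for Alox15, 0.59 for Areg, 0.54 for Oasl1, 0.33 for Il15 and 0.78 for Jun. In that fit 7 well-detected genes were higher and 2 lower at an unadjusted p of 0.05. The totals of C1 and vehicle did not overlap, so all values given with this covariate are extrapolated and are not corrected effects. The part of the age label was not tested, since all 4 C1 samples and no vehicle sample carry it.

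**Figure D5:**
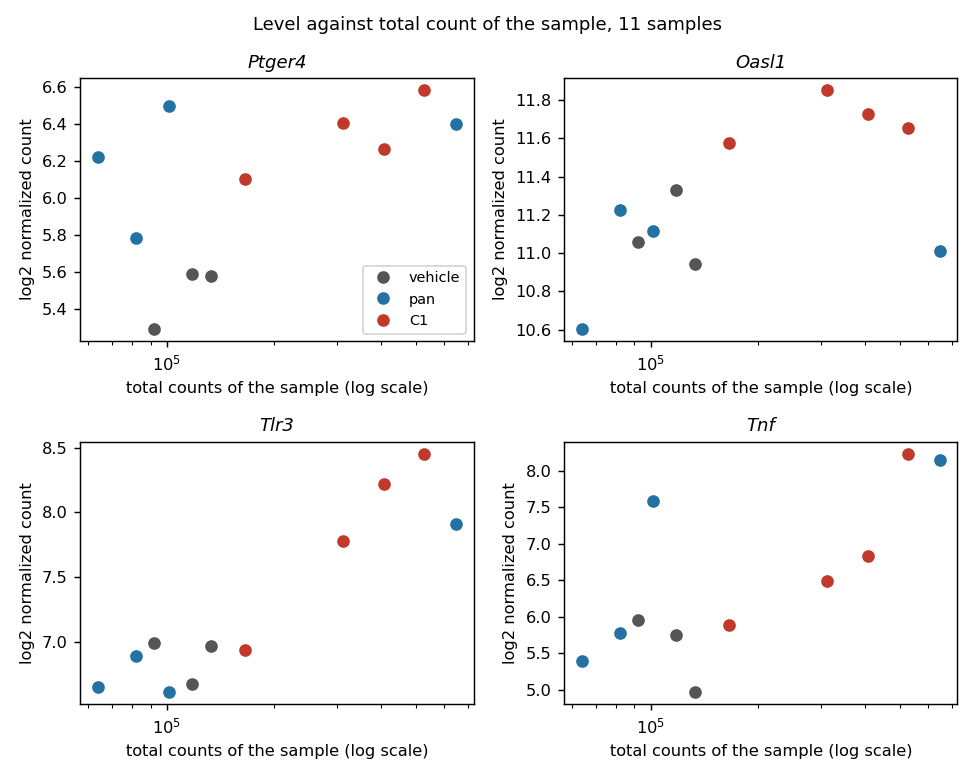
Each panel plots the log2 normalized count of 1 gene against the total count of the sample, on a log axis, for the 3 vehicle (grey), 4 pan (blue) and 4 C1 samples (red). In Oasl1 the pan sample with the highest total lies among the vehicle samples, and in Tlr3 that sample and C1 replicates 2 to 4 are the 4 highest.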

How the data were processed

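RNA from corneas was counted with the NanoString nCounter mouse Inflammation panel. The authors scaled the probe counts of each sample to its housekeeping probes (geometric mean, ROSALIND) and deposited the log2 of these normalized counts, per the file headers as one column per sample. The tables also hold the authors' fold changes, p-values and adjusted p-values of each comparison, which were not used. Vehicle values were identical in both tables, and 0 columns of samples were left unmapped. The study processed more replicates than it analysed and kept those that passed quality control. Within a sample, values were whole multiples of one step (tolerance 0.01), taken as 1 count.

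The log2 values of 4 C1 and 3 vehicle samples were fitted with limma 3.58.1 (lmFit, eBayes) in R 4.3.3 as they stand, with no covariate, and Benjamini-Hochberg adjustment ran over 248 genes. C1 against pan was fitted likewise. Exact permutation tests enumerated all 35 splits (Python 3.11.15, scipy 1.17.1, numpy 2.4.6, pandas 2.3.3, matplotlib 3.10.9). Well detected means a mean log2 value of at least 5. Fold changes are on the log2 scale of normalized counts, and all levels printed are normalized counts unless called counts. P-values measure only the spread between these samples. In 20 simulated tables of 248 genes for C1 against vehicle, limma recovered 51.0% of genes with a true log2 change of 1. It recovered 77.5% of those with 2, and false calls were 5.17%. These rates are for the panel as a whole, and recovery among the well-detected genes alone was not estimated. The rates also do not cover false calls that the differences in total count or age label could bring.

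The comparison, the gene lists and the tests were chosen with earlier results of these data known. Genes were named by rule: any gene past an adjusted p of 0.05, the 12 well-detected genes with the smallest p, the member of each list (of at least 3 well-detected genes) with the highest level and with the largest change, 5 genes that the study names (chosen by it on these samples, so no independent evidence), and the 5 low genes with the smallest p. Others were named after their values were seen, to describe a list. Gene IDs are those of the tables. All 247 IDs were found in RefSeq, and the 3 of Crp, Elk1 and Nos2 belong to other symbols there.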

Additional observations from a re-analysis of the deposited data

Results flagged for a closer look

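In 86 groups of 4 samples (each gene named by rule, in C1 and in pan), 5 had 1 sample far from the other 3, where chance gives about 1 in 20 groups, or 4.3. In C1, Il1a in replicate 3 had a log2 value of 8.559 (731 counts), against 9.055 to 9.122 in the others. H2-Ea-ps in C1 replicate 1 had 1.46, from 2 counts, against 2.505 to 2.658. In pan, replicate 1 had the lowest Arg1 at 11.44 against 11.91 to 11.95, and the lowest Irf1 at 12.3 against 12.66 to 12.7. Tgfbr1 in pan replicate 4 was 11.82 against 12.39 to 12.45. The cause was not tested.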

How the results depend on the processing

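The count of genes past an adjusted p of 0.05 for C1 against vehicle stayed at 0 in limma in 16 of 19 alternatives. It was 2 with a mean-dependent prior variance (Alox15 and Oasl1, adjusted p 0.0379 each), 1 with only well-detected genes (Ptger4), and 1 with background subtracted (Ifng, at the floor in C1). The same first 2 alternatives gave 2 and 1 of the well-detected genes, against 0. The count of well-detected genes higher at an unadjusted p of 0.05, 11 in the reported fit, was 17 with only well-detected genes and 7 with log2 total count as a covariate, and that of genes lower, reported as 3, was 5 without moderation, 5 with a mean-dependent prior, 5 with only well-detected genes, 6 after centring, 7 with a floor of 20 normalized counts, 6 with voom weights and 1 with the replicate block. The replicate block, tested as the numbers recur in both groups, left 9 genes higher. Same-numbered samples did not deviate together (r of 0.084, -0.046 and -0.005), while differently numbered ones ranged from -0.31 to 0.40. With so few samples and such a spread, these values cannot decide whether the numbers pair samples. Leaving out 1 sample gave 5 to 12 genes higher, lowest without vehicle replicate 2, and 1 to 6 lower, 14 to 25 with all C1 samples above vehicle (25 without vehicle replicate 1 and 20 without C1 replicate 3), and 4 to 12 with all below, highest without C1 replicate 1, at 9 without C1 replicate 4 and at 8, 11 and 9 without vehicle replicates 1, 2 and 3. After centring, 10 genes had all C1 samples below vehicle, and the median log2 fold change was -0.04. The median of the prostanoid list was -0.24 and that of the HMG list 0.21 with the covariate. Across 19 alternatives, each of Ptger4, Alox15, Areg, Oasl1, Il15, Jun, C3ar1, Limk1, Il1a, Tlr3, Smad7, Ifi27l2a, Tnfaip3 and Tnf kept its sign. Genes near 0 did not: after centring, Hif1a, Hmgn1 and Irf1 were at -0.018, -0.040 and -0.027, Cd55 was at 0.040 with the block, and the covariate gave Bcl2l1 0.23, Cd55 0.59, Cdc42 0.29, Gnb1 0.26, Irf1 -0.062, Nfe2l2 0.31, Tgfbr1 0.12 and Tollip 0.090. Leaving out 1 sample took Cdc42 from -0.13 to 0.026, Map2k1 from -0.043 to 0.019, Hif1a from -0.026 to 0.10, Hmgn1 from -0.042 to 0.069, Cd55 from -0.18 to 0.11 and Irf1 from -0.013 to 0.10. For C1 against pan the count of 1 was 0 with a mean-dependent prior, a robust prior, centring and a pseudocount, and 0 to 1 when 1 sample was left out. The gene called was not always Pik3c2g: it was Il15 with only well-detected genes and without moderation, and Fasl without pan replicate 2. The cause of these shifts was not tested. Genes at 3 counts or fewer numbered 19 to 44 in the vehicle samples and 1 to 26 in the C1 samples, so values of low genes rest on few counts.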
